A study of Mus musculus with 2 samples.

Results

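Selenoproteins are proteins that carry the amino acid selenocysteine, which is inserted at an in-frame UGA codon that would otherwise end translation. Insertion needs a hairpin in the untranslated 3′ end of the mRNA and a dedicated tRNA, binding protein and elongation factor. Many selenoproteins are redox enzymes that use the selenium atom at the active site, and Sepp1 is a secreted selenium carrier. The 9 selenoprotein genes described here are Sepp1, Gpx1, Gpx3, Gpx4, Msrb1, Sepw1, Selk, Selm and Sepn1. They were taken by symbol from the 27998 genes listed for the libraries, and all 9 were found. The files use older symbols: Sepp1 is now Selenop, Sepw1 is Selenow, Selk is Selenok, Selm is Selenom and Sepn1 is Selenon.

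The cells were wild-type lung fibroblasts of the C57BL/6 mouse strain, grown out of whole dissociated lung on plastic and profiled by droplet single-cell RNA sequencing. In this assay the 3′ end of each captured transcript molecule carries a unique molecular identifier (UMI), so a gene is counted in molecules and its length does not enter. There was 1 control library and 1 stimulated library. Stimulation began at passage 3 and lasted 14 days, and control cells from the same lung received vehicle in the same medium for the same time. Agents named in the protocol, to be used alone or combined, were rosiglitazone at 10 µM, which activates the nuclear receptor PPARG, SB4315442 at 1 µM, and rhBMP4, a recombinant bone morphogenetic protein, at 4 µM. Which of them reached the stimulated cells is not stated. The medium was advanced DMEM/F12 with 10% serum, or with 1% ITS+3, a supplement named as inducing a state like that of lipid-storing fibroblasts. Supplements of the ITS type contain insulin, transferrin and selenium. The labels do not say whether these 2 cultures had it. The labels give no age, sex or number of animals.

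Since each group had 1 library, replicate spread is unknown and no difference below has a test across cultures. The intervals are exact 95% intervals for counting error only. The control library kept 4703 cells and the stimulated one 7468, with medians of 19634 and 15380 UMIs per cell. The libraries shared 46 kept cell barcodes. Fibroblast-like clusters held 3724 cells of the control and 6138 of the stimulated library. Another cluster, macrophage-like, held 150 control cells and 1 stimulated cell. The 12 macrophage markers summed to 756 CPM (UMIs of a gene scaled to a common library total, as counts per 1000000 UMIs) in control and 14.3 CPM in stimulated cells, where 1 of them was at 0 UMIs, and 0 of 12 were higher in the stimulated library. The 12 fibroblast markers summed to 11880 and 5699 CPM, with 4 of 12 higher in the stimulated library, and the 8 smooth muscle markers to 1631 and 299 CPM, with 1 of 8 higher. Endothelial markers summed to 12.1 and 12.4 CPM and mesothelial ones to 31.6 and 29.8 CPM, while epithelial and lymphocyte markers each summed to under 1 CPM in both libraries. The part of these marker shifts in the members' differences was not tested, apart from the values without macrophage-like cells given below.

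The codon that defines this gene family is shown in its coding context for 6 members, Sepp1, Gpx1, Gpx3, Gpx4, Msrb1 and Sepw1. Each line gives 27 bases of the coding sequence, 5′ to 3′, from the GENCODE M21 transcripts, with the selenocysteine TGA in capitals.
Sepp1, codon 59: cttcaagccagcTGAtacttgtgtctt
Sepp1, codon 259: cacttagagagcTGAgacaccacagca
Gpx1, codon 47: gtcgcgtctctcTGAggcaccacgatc
Gpx3, codon 73: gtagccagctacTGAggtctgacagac
Gpx4, codon 73: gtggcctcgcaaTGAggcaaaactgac
Msrb1, codon 95: caatcaagattcTGAatatttagcagc
Sepw1, codon 13: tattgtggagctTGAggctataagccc
Sepp1 held 10 in-frame TGA codons in a coding sequence of 380 codons, all 10 marked as selenocysteine in the annotation, and each of the other 8 members held 1. The first Sepp1 codon lies in exon 2 of 5, and the other 9 lie in exon 5, the last. Coding sequences of the others ran from 88 codons for Sepw1 to 557 for Sepn1. On the GRCm38 build the printed codons lie at chr15:3274848-3274850 and chr15:3279342-3279344 for Sepp1, chr9:108339451-108339453 for Gpx1 (exon 1 of 2), chr11:54907256-54907258 for Gpx3 (exon 2 of 5), chr10:80054737-80054739 for Gpx4 (exon 3 of 7) and chr17:24740158-24740160 for Msrb1 (exon 3 of 4), all on the plus strand. The Sepw1 codon lies at chr7:15920464-15920466 on the minus strand (exon 2 of 6), and its printed window spans 2 exons. The libraries counted transcript ends, so they measured the level of these mRNAs and not the reading of the codon.

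Sepp1 and Msrb1 were the members that differed most between the libraries, in opposite directions. Sepp1 was 4.23-fold higher in the stimulated library (interval 4.02 to 4.46) and Msrb1 2.93-fold lower (2.87 to 2.99), while the other 7 members lay within 1.5-fold. A 1.5-fold difference was thus reached by 1 of 9 members upward, and 1 of 9 downward. Of all 8787 genes averaging 5 CPM or more over the libraries, 7.75% reached 1.5-fold upward and 12% downward, so the members' counts are near what genes at large showed. That is 681 genes upward and 1056 downward, a split that became 897 and 831 with the libraries scaled by the trimmed mean of M values (TMM) and 862 and 866 with DESeq2 size factors. In all, 4 members had a ratio above 1 and 5 below, and the members' median log2 fold was -0.11, against -0.06 for all those genes. Summed, the 9 members made up 5018 CPM in control and 4947 CPM in stimulated cells, a ratio of 0.986 (0.982 to 0.990). TMM and DESeq2 size factors raise every log2 fold by 0.104 and 0.0887, which puts this summed ratio above 1, so its side of 1 depends on the scaling.

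**Figure D1:**
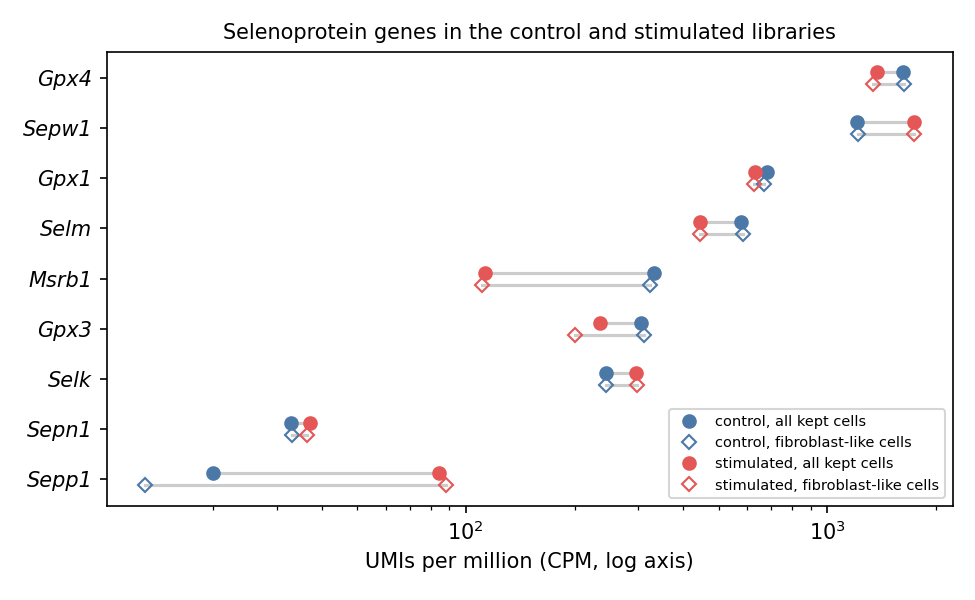
Level of each of the 9 selenoprotein genes in the control and the stimulated library, in CPM on a log axis, with filled circles for all kept cells, open diamonds for fibroblast-like cells and a grey line joining the libraries. Over all kept cells Sepp1 stands at 20 CPM in control and 84.5 CPM in stimulated cells and Msrb1 at 331 and 113 CPM, while the other genes lie closer together.

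Sepp1 encodes selenoprotein P, the secreted protein that carries selenium between tissues. It was measured at 20 CPM in the control library (19.1 to 20.9, 1769 UMIs) and 84.5 CPM in the stimulated library (82.9 to 86.2, 9908 UMIs). Its log2 fold stood at percentile 99 of the genes measured. Macrophages are a known source of Sepp1, and the 150 control macrophage-like cells, 3.19% of control cells, held 34.0% of the control Sepp1 UMIs at 347 CPM (319 to 375). Within fibroblast-like clusters Sepp1 was at 13 CPM in control and 88.1 CPM in stimulated cells, 6.77-fold higher (6.36 to 7.22). Most of these cells sat in different clusters in the 2 libraries, clusters 0, 1, 3, 4 and 5 in control and 9, 10, 11 and 15 in stimulated cells. With only the macrophage-like cluster left out, the ratio was 6.29 (5.92 to 6.69). In control fibroblast-like cells Sepp1 stood at 3.75% of its level in the macrophage-like cells. The 6 abundant macrophage markers Lyz2, Tyrobp, Fcer1g, C1qa, C1qb and C1qc stood at 0.104% to 0.180% of theirs. All 12 macrophage markers summed to 78.5 CPM in control and 14.2 CPM in stimulated fibroblast-like cells. In the control macrophage-like cells they summed to 34440 CPM. By these sums the less abundant markers of the list together stood at a higher percentage than the 6 named, so the 6 do not stand for the list. The less abundant ones were not set against Sepp1 one by one. How much of the Sepp1 in control fibroblast-like cells is RNA from macrophages was not tested.

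Gpx3 encodes the secreted glutathione peroxidase of plasma and extracellular fluid. It was at 305 CPM in control and 235 CPM in stimulated cells, 1.3-fold lower (1.28 to 1.32). In fibroblast-like clusters alone it was at 311 and 201 CPM, 0.646 of the control level, which passes 1.5-fold. With cluster 12 counted among them the ratio was 0.753, which does not. This cluster of 545 stimulated cells showed 10 of the 12 fibroblast markers but was left unnamed, because Des, a smooth muscle marker, led it and no fibroblast marker did. Clusters left unnamed held 22.7% of the stimulated Gpx3 UMIs. So the 2 secreted members stood on opposite sides of 1, and the size of the Gpx3 difference depended on which clusters were counted.

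The intracellular glutathione peroxidases differed less. Gpx1, the cytosolic enzyme that reduces hydrogen peroxide, was at 682 CPM in control and 630 CPM in stimulated cells, a ratio of 0.924 (0.914 to 0.934). Its ratio was 0.993 with TMM scaling, where the interval of 0.982 to 1.003 included 1, and 0.982 with DESeq2 size factors. Gpx4, which reduces lipid hydroperoxides in membranes and thereby protects cells from ferroptosis, was at 1619 and 1372 CPM, a ratio of 0.847 (0.841 to 0.853). The level of Gpx4 is uncertain. Of 72 windows cut from its 3′ ends, 62 also matched other annotated genes that the libraries' gene list does not hold. Of the members, Selk was the only other one with such matches, in 4 of 33 windows.

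Msrb1 encodes methionine sulfoxide reductase B1, which returns oxidised methionine residues to methionine. It was at 331 CPM in the control (327 to 335, 29309 UMIs) and 113 CPM in the stimulated library (111 to 115, 13238 UMIs), and its log2 fold stood at percentile 2.52. In fibroblast-like clusters the values were 323 and 111 CPM, so the ratio was nearly the same there (0.342, against 0.341 over all cells). Sepw1 encodes selenoprotein W, a small cytosolic protein with a thioredoxin-like fold. It was at 1207 CPM in control and 1736 CPM in stimulated cells, 1.44-fold higher (1.43 to 1.45). Scaling by TMM or by DESeq2 size factors moved Sepw1 past 1.5-fold, at 1.55 and 1.53. These scalings shifted every log2 fold by 0.104 and 0.0887, and no member changed sides of 1.

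The 3 members of the endoplasmic reticulum went different ways. Selk, a membrane protein that takes part in palmitoylation and in calcium flux, was at 244 CPM in control and 295 CPM in stimulated cells, 1.21-fold higher (1.19 to 1.23). Selm, a small luminal protein with a thioredoxin-like fold, was at 576 and 445 CPM, 1.3-fold lower (1.28 to 1.31). Sepn1, a glycoprotein linked to calcium handling and best known from muscle disease, was the least abundant of them at 32.8 and 37.0 CPM, 1.13-fold higher (1.08 to 1.18). None of these 3 reached 1.5-fold in either direction over all cells.

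**Figure D2:**
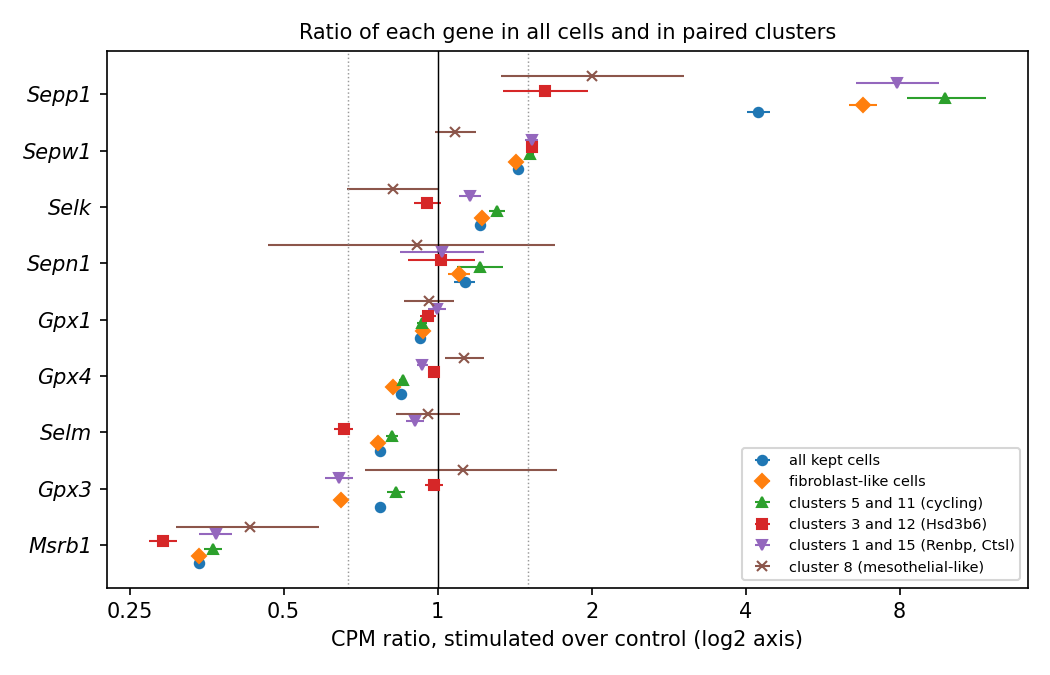
Ratio of the stimulated to the control level for each of the 9 genes, on a log axis, over all cells, in fibroblast-like cells, in 3 cluster pairs with shared leading genes and in mesothelial-like cells. Bars are exact 95% counting intervals and dotted lines mark 1.5-fold. Msrb1 lies below 1 and Sepp1 above 1 in each subset drawn, while the other genes lie nearer 1.

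Levels among cells were compared at equal depth by thinning every cell to 5000 UMIs, which left out 626 control and 760 stimulated cells. Sepp1 had at least 1 UMI in 8.86% of control cells (8.0% to 9.77%, 361 of 4077) and in 27.0% of stimulated cells (26.0% to 28.1%, 1813 of 6708). Without thinning the shares were 21.1% and 49.8%. In fibroblast-like cells the thinned shares were 6.65% and 28.2%, and in control macrophage-like cells 70.2% (61.6% to 77.9%, 92 of 131). The macrophage markers Lyz2 and Tyrobp stood at 18460 and 3155 CPM in the control macrophage-like cells, and Sepp1 at 347 CPM. A UMI of Lyz2 was seen in 15.4% of control fibroblast-like cells and one of Tyrobp in 2.44%. In stimulated fibroblast-like cells Lyz2 was seen in 0.115%, but that library held only 1 macrophage-like cell. How much of any of these shares, that of Sepp1 included, is RNA from macrophages was not tested. Before thinning, the median depths were 21526 UMIs in control fibroblast-like, 16169 in stimulated fibroblast-like and 11405 in macrophage-like cells.

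The Msrb1 share was lower in the stimulated library, as its level was, with 73.6% of control and 41.4% of stimulated cells holding a UMI. Gpx3 had a UMI in 52.7% of control and 46.2% of stimulated cells, and in 30.5% of control macrophage-like cells. Col1a1, a collagen gene that macrophages do not make, had a UMI in 56.5% of those macrophage-like cells. There Col1a1 stood at 615 CPM, against 2437 CPM in control fibroblast-like cells, and Gpx3 at 140 CPM, against 311 CPM. How much of the Gpx3 in these cells is free RNA was not tested, so no expression is read from their share. Gpx1, Gpx4 and Sepw1 were seen in 93.4% to 99.8% of cells of either library. Selk was seen in 66.5% of control and 73.2% of stimulated cells, Selm in 91.6% and 86.4%, and Sepn1 in 16.1% and 17.2%.

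Gpx3 had the highest ratio of variance to mean of the members across fibroblast-like cells, a measure that depends on the mean. The variance of its UMIs per cell was 4.18 times the mean in control and 3.94 times the mean in stimulated cells, where counting noise alone would give 1. The tenth of cells with the most Gpx3 held 47.5% of its UMIs in control and 55.0% in stimulated cells, against 23.6% and 22.9% for Gpx1. The sparser Sepn1 had a higher share by this measure, 63.5% in either library, and so did Sepp1, at 100% and 59.3%. The control value of Sepp1 was fixed in advance, since only 6.65% of those cells held any Sepp1 UMI. For Sepp1 the variance was 1.14 times the mean in control and 2.01 times in stimulated cells. Among stimulated fibroblast-like cells 4369 held no Sepp1 UMI at this depth, 1172 held 1, 318 held 2 and 226 held 3 or more, with a maximum of 13. The corresponding control cells numbered 3437, 224, 17 and 4. For Msrb1 the same variance ratio was 1.76 in control and 1.10 in stimulated cells. Sepn1 lay at 0.973 and 1.03, near counting noise.

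Clusters were built from these same cells, so their levels are a description. Among control fibroblast-like clusters Sepp1 was at 22.3 CPM (19.1 to 25.9) in cluster 3, led by Hsd3b6, 15.4 CPM in both cluster 4, led by Lum, and cluster 1, led by Serpinb1a, 13 CPM in cluster 0, led by Meg3, and 7.30 CPM (6.11 to 8.65) in cluster 5, led by genes of cell division. The intervals of clusters 4 and 1 overlap. In the stimulated library Sepp1 was at 128 CPM (124 to 131) in cluster 10, led by Dio3, 122 CPM (114 to 130) in cluster 15, led by Clu, 71.7 CPM (69.2 to 74.3) in the dividing cluster 11 and 30.9 CPM (28.5 to 33.6) in cluster 9, led by Crabp1. The intervals of clusters 10 and 15 overlap. The lowest stimulated fibroblast-like cluster was thus above the highest control one, but how often genes at large show this was not counted. Cluster 12, led by Des and left unnamed, was at 36.1 CPM. Mesothelial-like cells, which resemble the lining of the lung surface, had 48.0 CPM in 57 control cells and 96.3 CPM in 23 stimulated cells.

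**Figure D3:**
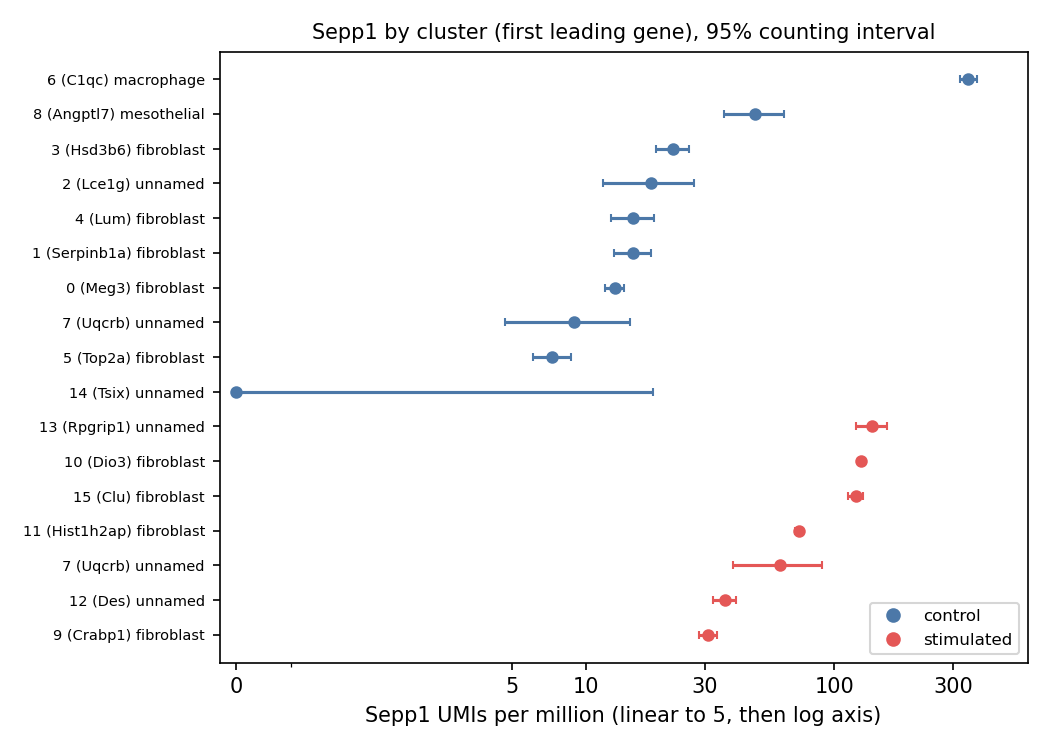
Sepp1 level in each cluster of at least 50 cells of 1 library, in CPM on an axis that is linear near 0 and logarithmic above, with exact 95% Poisson intervals. The control macrophage-like cluster is at 347 CPM, control fibroblast-like clusters at 7.30 to 22.3 CPM and stimulated ones at 30.9 to 128 CPM.

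Gpx3 varied between clusters about as widely as Sepp1. Control fibroblast-like clusters ran from 193 CPM in the dividing cluster 5 to 623 CPM in cluster 3, a 3.23-fold range. Stimulated ones ran from 81.7 CPM in cluster 9 to 302 CPM in cluster 10, a 3.70-fold range, and cluster 12 stood above them at 612 CPM. The Sepp1 ranges were 3.06-fold and 4.13-fold. Gpx1 and Gpx4 varied least, by 1.18-fold and 1.16-fold in control and by 1.11-fold and 1.16-fold in stimulated cells. Msrb1 ran from 279 to 471 CPM over control and from 100.1 to 133 CPM over stimulated fibroblast-like clusters, so the 2 sets of clusters did not overlap. Sepw1 did not overlap either, at 937 to 1346 CPM and 1431 to 2015 CPM. The share of all genes that separate in this way was not worked out, so it is not read as particular to these genes. Selk spanned 1.73-fold in the control and was highest in cluster 1 at 361 CPM. Selm was highest in cluster 4 at 778 CPM, and in control macrophage-like cells it stood at 242 CPM while Gpx1 stood at 980 CPM.

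Some control and stimulated clusters had leading genes in common, which gave a comparison of more similar cells. These pairings were chosen after the data were seen. Between the dividing clusters 5 and 11, Sepp1 was 9.82-fold higher in the stimulated cells (8.26 to 11.8). It was 7.90-fold higher between clusters 1 and 15 (6.58 to 9.56). Between clusters 3 and 12 the ratio was 1.62 (1.34 to 1.96), and in mesothelial-like cells 2.01 (1.33 to 3.02). Msrb1 was 2.75-fold, 2.72-fold, 3.44-fold and 2.33-fold lower in the same 4 comparisons, so its ratio varied less than that of Sepp1. Sepw1 was 1.52-fold, 1.53-fold and 1.53-fold higher in the 3 pairs and 1.08-fold in mesothelial-like cells, where the interval of 0.987 to 1.19 included 1. Gpx3 was at 0.830, 0.641 and 0.984 of the control level in the 3 pairs, and the last of these, for clusters 3 and 12, had an interval of 0.946 to 1.02. Selk had a ratio of 0.955 there, with an interval that included 1 (0.901 to 1.01). In mesothelial-like cells 4 members lay on the other side of 1 from their ratio over all cells. Of these Gpx4 was at 1.13 (1.03 to 1.23), while the intervals of Gpx3 (1.12), Selk (0.820) and Sepn1 (0.910) included 1.

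Members were set against Sepp1 cell by cell within fibroblast-like cells at 5000 UMIs, with Pearson's r of log2(1 + UMIs) given as a description, since cells of 1 library share its source and depth and few held more than 1 Sepp1 UMI. Over 3682 control cells r lay between -0.00376 for Gpx1 and 0.0621 for Gpx3. Over 6085 stimulated cells it lay between -0.0144 for Selk and 0.0822 for Gpx4. The central 98% of all genes compared spanned -0.0647 to 0.0748 in the control (4019 genes) and -0.0954 to 0.111 in the stimulated library (3833 genes). Each member lay within that range, and all values were weak. Gpx3, Gpx4 and Sepw1 stood near its upper end, at ranks 71, 98 and 86 from the top in control cells. In stimulated cells their ranks were 107, 93 and 190, and the remaining members ranked lower in both libraries. They were picked out after their values were seen. Whether such ranks are particular to these members was not tested. At 10000 UMIs r was larger for some members and the range of all genes was wider. Sepw1 in stimulated cells went from 0.0558 to 0.131 (range -0.143 to 0.159), and Gpx3 in control cells went from 0.0621 to 0.102, just past its range of -0.101 to 0.0973. In stimulated cells mean Gpx4 UMIs were 6.59, 6.75, 6.98 and 8.35 in cells with 0, 1, 2 and at least 3 Sepp1 UMIs. Mean Gpx1 UMIs in the same cells were 3.13, 3.15, 3.07 and 3.16, with no order. Mean Gpx3 UMIs were 0.957, 1.39, 1.41 and 1.52, but the share of cells with a Gpx3 UMI was 41.0%, 46.5%, 50.6% and 42.9%, lower again in the last group of 226 cells. Mean Msrb1 UMIs were 0.543, 0.573, 0.572 and 0.553. Within clusters the r of Gpx4 with Sepp1 ran from -0.0546 in cluster 9 to 0.110 in cluster 10.

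**Figure D4:**
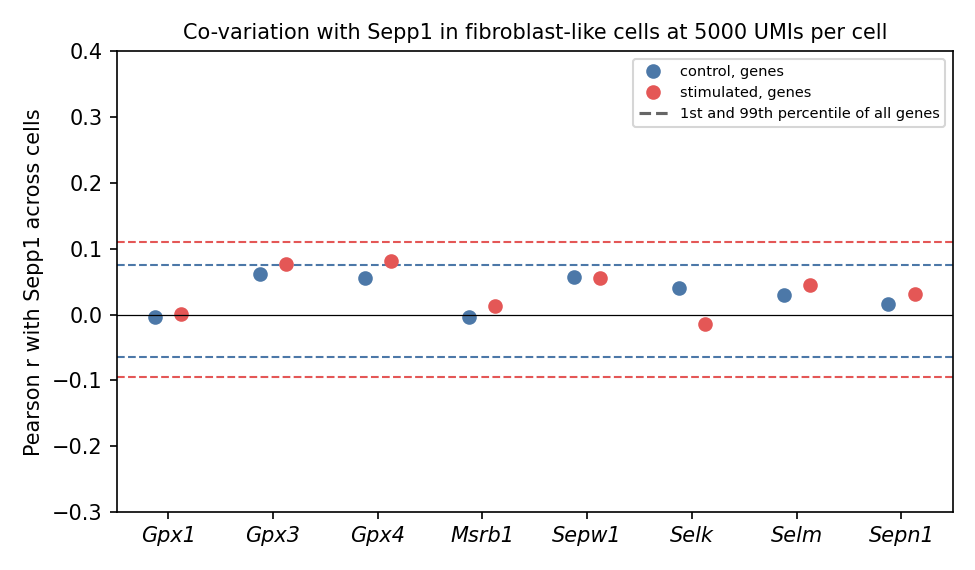
Pearson's r of each selenoprotein gene with Sepp1 across fibroblast-like cells thinned to 5000 UMIs, in the control (3682 cells) and the stimulated library (6085 cells), with dashed lines at the 1st and 99th percentile of all genes compared. The values lie between -0.0144 and 0.0822, inside the central 98% of genes.

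The genes most like Sepp1 across cells were others. In the control library they were Sod3, an extracellular superoxide dismutase (r = 0.162), Cxcl14, a chemokine (0.120), Fth1, the ferritin heavy chain (0.117), Prelp, a matrix proteoglycan (0.110), and Sfrp1, a secreted Wnt inhibitor (0.109). In the stimulated library they were Serpina3n, a serine protease inhibitor (r = 0.332), Mt1, a metallothionein (0.263), Col4a1, a basement membrane collagen (0.219), Fth1 (0.199) and Mt2, another metallothionein (0.189). Only Fth1 was among the 5 in both libraries. These values pool the fibroblast-like clusters of a library, and r within clusters was not worked out for these genes. Cxcl14 was a leading gene of control cluster 3 and Serpina3n of stimulated cluster 10, the fibroblast-like clusters highest in Sepp1. Among the members themselves the highest r in the control was 0.122, between Msrb1 and Selm, and Sepw1 with Selk gave -0.0683 in control and -0.0702 in stimulated cells.

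Cells with at least 5 UMIs of 12 cell-division genes at this depth were compared with the other fibroblast-like cells, 587 against 3095 in control and 1671 against 4414 in stimulated cells. Each of the 9 members was lower in the dividing cells of both libraries. Of the 8787 genes compared, 42.1% were lower in dividing control cells, 39.4% in dividing stimulated cells and 31.5% in both, and whether the members differ from genes at large in this was not tested. Sepp1 was at 7.72 CPM in dividing and 14.1 CPM in other control cells, a ratio of 0.546 (0.445 to 0.665), and at 68.2 and 96.9 CPM in stimulated cells, a ratio of 0.704 (0.670 to 0.738). Gpx3 had ratios of 0.701 and 0.756, and Sepw1 of 0.793 and 0.834. Nearest to 1 were Gpx1 in control cells, at 0.949, and Selk in stimulated cells, at 0.967. Sepp1 without the dividing cells was 4.36-fold higher in the stimulated library.

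Of the other selenoprotein genes, 14 were listed and 11 passed the 5 CPM minimum. Of these 11, 3 reached 1.5-fold upward and 1 downward, and their median log2 fold was -0.05. Dio2, the deiodinase that activates thyroid hormone, was at 2.57 and 13.8 CPM (5.38-fold higher), and Dio3, the one that inactivates it, at 2.70 and 18.0 CPM (6.68-fold higher). 2700094K13Rik, now Selenoh, a nuclear selenoprotein, was at 238 and 392 CPM, 1.64-fold higher (1.62 to 1.67). Vimp, a protein of the machinery that removes misfolded proteins from the endoplasmic reticulum, was at 198 and 126 CPM, 1.56-fold lower, and did not reach 1.5-fold under either scaling. The most abundant of these genes in UMIs was Sep15, which works with a glycoprotein folding sensor, at 433 and 495 CPM (1.14-fold higher).

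Among genes for making and inserting selenocysteine, 10 were measured, and 0 were higher and 0 lower at 1.5-fold, with a median log2 fold of 0.11. The most abundant were Rpl30, a ribosomal protein that also binds the selenocysteine insertion hairpin, at 1569 and 1758 CPM, and Ncl, nucleolin, at 259 and 284 CPM. Eefsec, the selenocysteine elongation factor, and Scly, which releases selenium from selenocysteine, came nearest, at 1.49-fold and 1.44-fold higher, and were picked out after their values were seen. Both passed the threshold with TMM scaling, at 1.60 and 1.55, and with DESeq2 size factors, at 1.58 and 1.53. Of the 3 receptors that take up Sepp1, only Lrp1 passed the 5 CPM minimum, at 234 and 312 CPM (1.33-fold higher). Lrp8, the receptor of brain and testis, was at 4.69 and 4.81 CPM.

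Relatives that use cysteine in place of selenocysteine gave 4 measured genes, 0 higher and 2 lower (median log2 fold -0.36). The 2 were Msrb3, the methionine sulfoxide reductase of the endoplasmic reticulum and mitochondria, at 33.1 and 18.8 CPM (1.76-fold lower), and Msra, which acts on the other stereoisomer, at 8.25 and 5.37 CPM (1.54-fold lower). Under both scalings Msra no longer reached 1.5-fold. The methionine sulfoxide reductases that passed the minimum, Msrb1 included, were thus each lower in the stimulated library. Gpx8 and Gpx7, the most abundant of the list, were at 93.3 and 93.1 CPM and at 82.4 and 76.4 CPM.

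Among 22 redox partners, 3 reached 1.5-fold upward and 4 downward (median log2 fold -0.10). The higher ones were Gclc, the catalytic subunit of glutathione synthesis (3.00-fold), Glrx, a glutaredoxin (2.90-fold), and Prdx6, a peroxiredoxin that reduces phospholipid hydroperoxides (1.55-fold). The lower ones were Sod3 (6.53-fold), Nqo1, a quinone reductase (3.38-fold), Gclm, the modifier subunit paired with Gclc (1.66-fold), and Slc7a11, the cystine importer (1.53-fold), which fell short of 1.5-fold under both scalings. The 2 subunits of glutamate-cysteine ligase thus stood on opposite sides, with Gclc at 13.6 and 40.7 CPM and Gclm at 69.8 and 41.9 CPM. The most abundant, Prdx1 and Prdx5, were at 757 and 762 CPM and at 714 and 544 CPM. Of 9 measured calcium and redox genes of the endoplasmic reticulum, 0 were higher and 2 lower (median log2 fold -0.19). They were Ero1l, the oxidase that drives disulfide formation, at 93.7 and 22.3 CPM (4.20-fold lower), and Itpr1, a calcium release channel, at 10.0 and 6.27 CPM (1.60-fold lower), which fell short of 1.5-fold with TMM. P4hb, protein disulfide isomerase, was at 612 and 537 CPM, and Vcp at 245 and 204 CPM.

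Sepp1 overlaps Ccdc152 on the opposite strand, which had 2 UMIs in control and 0 in stimulated cells. The sources used here do not say how the counting used strand, so whether reads of the overlapping pair were told apart is not known.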

How the data were processed

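The authors deposited UMI counts per gene and barcode for 1 control and 1 stimulated library, with no normalization; groups come from the sample titles. Cell Ranger 3.0.2 wrote them, per the file headers, but Cell Ranger 1.3.1, with Seurat 3.0.0, stands in the submitters' processing notes. For genome build and annotation the sources used here give nothing. The members and gene lists were chosen with earlier results of these data known.

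Barcodes with at least 500 genes and at most 20% mitochondrial UMIs were kept: 4703 of 5016 control and 7468 of 7698 stimulated, with 88573140 and 117193148 UMIs in all. The libraries shared 53 deposited barcodes, 46 among kept cells. No doublet caller was run, so doublets remain. Cells were clustered together without integration (scanpy 1.11.5, 2000 variable genes, 30 principal components, 15 neighbours, Leiden resolution 0.5). A cluster was named from fixed markers: at least 3 seen in 25% of its cells and, for types other than fibroblast, at least 2 among its 10 leading genes. A fibroblast-like cluster could not have more leading markers of another type than of fibroblasts, which left cluster 12 unnamed. A cluster with no leading fibroblast marker also stayed unnamed if its library was more than 3 times as deep by median UMIs (clusters 2, 7, 13 and 14).

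CPM is summed UMIs over the library total. Folds carry exact conditional-Poisson intervals (scipy 1.17.1), levels exact Poisson and shares exact binomial (Clopper-Pearson) intervals, all covering counting error only. Genes averaging 5 CPM or more were set against a 1.5-fold threshold, and genes averaging 25 CPM or more entered correlations. Named genes are all members; in the other lists each gene past 1.5-fold and the 2 most abundant; and the 5 genes most correlated with Sepp1, leaving out mitochondrial, ribosomal protein and unnamed gene models. Alternatives for correlations were thinning to 10000 UMIs, rank correlation and leaving out dividing cells. Scaling alternatives used edgeR 4.0.16 (TMM) and DESeq2 1.42.0. Codons came from GENCODE M21 transcripts (GRCm38). Near copies were sought with minimap2 2.31, using 90 nt windows every 30 nt over the last 400 nt of each transcript and at most 2 mismatches. The fold computation was tested on simulated data.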

Additional observations from a re-analysis of the deposited data

How the results depend on the processing

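No paired analysis was possible because each group has 1 library. Sepp1 stayed at least 1.5-fold higher and Msrb1 at least 1.5-fold lower under every alternative run, as they did at 2-fold except for Sepp1 between clusters 3 and 12. The Sepp1 ratio of 4.23 became 4.55 with TMM, 4.5 with DESeq2 size factors, 6.77 in fibroblast-like clusters, 6.45 with cluster 12 added to them, 6.29 without macrophage-like cells, 3.16 as a mean over cells of per-cell CPM and 3.96 without the 5% of cells with the most UMIs. In the pairs chosen after the data were seen it was 9.82 (clusters 5 and 11), 1.62 (3 and 12), 7.90 (1 and 15) and 2.01 (mesothelial-like). It stayed within its interval with all barcodes (4.24) and with totals free of mitochondrial and ribosomal protein genes (4.35). The same held without dividing cells and cells under 5000 UMIs (4.36). Members at least 1.5-fold higher numbered 2 in place of 1 with TMM, with DESeq2 size factors and in each of the 3 cluster pairs, with Sepw1 as the addition. Members lower numbered 2 in fibroblast-like clusters and in clusters 1 and 15 (Gpx3 added), and 2 in clusters 3 and 12 (Selm added). The share of cells with a Sepp1 UMI was 4.56%, 13.5% and 21.1% in the control, and 13.2%, 41.1% and 49.8% in the stimulated library, at 2000 UMIs, at 10000 UMIs and unthinned; in fibroblast-like cells at 5000 UMIs it was 6.65% and 28.2%. Of 112 alternative ratios for the other 8 members, 38 stayed within the main counting interval. With no minimum level, 3581 genes were at least 1.5-fold higher and 4870 lower, against 681 and 1056. Of the other gene lists, TMM and DESeq2 size factors added Eefsec and Scly to the higher genes and took Vimp, Msra and Slc7a11 from the lower ones, and TMM took Itpr1. The cause of these shifts was not tested. With Sepp1 seen in few control cells, the depth limits what can be said of it cell by cell.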

Other observations

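Clusters 2, 7, 13 and 14 met the fibroblast marker count but were left unnamed under the depth rule. Cluster 13, 642 stimulated barcodes with a median near 1753 UMIs, had Sepp1 at 141 CPM (122 to 163) and Gpx3 at 335 CPM, and cluster 2, 437 control barcodes, had Sepp1 at 18.3 CPM (11.7 to 27.2). Cluster 7, present in both libraries, had Sepp1 at 8.93 CPM (4.88 to 15) in 275 control cells and 60.4 CPM (39.1 to 89.2) in 76 stimulated cells, and Msrb1 at 628 CPM in its control cells. In cluster 14, led by Tsix, no Sepp1 UMI was seen in 57 control cells, which allows up to 18.6 CPM by the exact Poisson interval.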
